A study of Oncorhynchus mykiss with 6 samples.

Results

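The miRNAs described here belong to families whose numbers were first given to miRNAs of fish. They were chosen by a rule on the names in the deposited miRNA table, with earlier results of these data known. The rule takes every known entry whose family number lies in 458 to 461, 722 to 730, 732 to 740 or 2184 to 2198. This gave 42 of 1939 entries, under 21 family numbers, with 42 distinct sequences. The samples are dorsal skin of the rainbow trout, Oncorhynchus mykiss, taken at an age of 45 days, from which small RNA libraries were sequenced. There were 3 libraries of the yellow mutant with yellow skin (YR) and 3 of the wild type with black skin (WR), and the labels give no allele, no treatment and no number of fish for a library. Whether libraries of 1 group come from different fish is not stated, and the spread behind each p-value may therefore be technical. The table names no species for an entry, so the fish origin of the names is background and was not tested.

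A miRNA is cut from a hairpin RNA whose arms give a mature 5p and a mature 3p strand. One of them is usually kept in an Argonaute protein while its partner is lost, and the kept strand recognises messenger RNAs mainly through its seed, bases 2 to 8. Many of the families described here were first cloned from zebrafish. In the deposited names the suffix x stands for the 5p arm and y for the 3p arm, and z has no stated arm. An entry is named by a family number and a suffix and not by a gene. Salmonid fish often carry several copies of a miRNA gene, so an entry need not be a single gene.

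The sequences below are shown because the comparisons turn on them; capitals mark the seed. The 2 arms of miR-2184, whose balance differed between the groups, have unrelated seeds:
miR-2184-x: aACAGTAAgagtttatgtgct
miR-2184-y: gCATGTAGgctcttacagtaca
The miR-734 entries are shown because y and z share all but their last base (T22C, counted from the 5′ end of y):
miR-734-x: gAACTATTctgcaacatttgtt
miR-734-y: tAAATGCTgcagaattgtgctt
miR-734-z: tAAATGCTgcagaattgtgctc
The miR-460 and miR-730 entries are shown because their 3p arms share a seed while their levels lay on opposite sides of WR:
miR-460-x: cCTGCATTgtacacactgtgc
miR-460-y: cACAGCGCatacaatgtggatg
miR-730-x: tCCTCATTgtgcatgctgtgtg
miR-730-y: cACAGCGCctgcaatgtggagg
miR-730-z: gTCCTCATtgtgcatgctgtgt
The last sequences are those of miR-722-y, miR-727-y and miR-725-y, the leading arms of their families:
miR-722-y: tTTGCAGAaacgtttcagattt
miR-727-y: gTTGAGGCgagttgaagact
miR-725-y: tTCAGTCActgtttctggtagt

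miR-460-y and miR-730-y are identical at 19 of 22 positions and differ by A9C, A11G and T21G, counted from the 5′ end of miR-460-y, all outside the seed. This is the closest match between 2 different families of the group, and the only seed that 2 of its family numbers share. Their 5p arms match at 14 of 21 positions and have different seeds. Of the 42 entries, 27 have a seed that no other entry of the table holds. The z entries are mostly variants of an x or y entry of their own family: miR-730-z is miR-730-x read from 1 base further upstream, which gives it another seed, miR-722-z is miR-722-y with 1 base more at its 3′ end, and miR-458-z differs from miR-458-y by G11A. Lengths ran from 18 to 24 bases, and 29 entries have 22. Where a family has both arms, their letters can pair with each other: miR-2184-x and miR-2184-y form 18 base pairs by RNAduplex and miR-734-x and miR-734-y 16, against a median of 16 over the 186 pairs of the whole table. The arms of miR-735 form only 7.

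The library totals were 10239947, 8245698 and 10336991 counts in YR and 8656356, 9150819 and 9209869 in WR, and 1 read was worth 0.101 to 0.127 TPM, the authors' depth-scaled level. The 42 entries held 0.356% to 0.469% of the counts of a library. Skin was checked with epidermal miRNAs (17 entries of families such as miR-203, miR-205 and miR-200), none of them at 0 in all libraries, whose summed level was 82450 to 99750 TPM in YR and 110700 to 113400 TPM in WR. miRNAs of other cells were present too: skeletal muscle (9 entries) summed to 13010 to 24430 TPM in YR and 17320 to 22070 TPM in WR, red blood cell (7 entries) to 229 to 404 and 237 to 489, neural (14 entries) to 4067 to 5566 and 3680 to 5819, and the liver miRNA miR-122-x stood at 5.33 to 12.9 in YR and 38.8 to 51.8 in WR. In bulk tissue, fewer cells of a type and less RNA per cell cannot be told apart. WR replicate 1 stands apart by names of an imprinted cluster of placental mammals (53 entries), with 92.0 to 115 TPM in YR, 4514 TPM in WR replicate 1 and 138 and 79.0 TPM in WR replicates 2 and 3. The part of these differences in the results below was not tested, and values without that library are given below where a call was gained or a fold change moved by over 1.5 times.

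Levels spanned over 3 orders of magnitude, and 22 of the 42 entries averaged 1 TPM or more, the minimum set for testing. miR-725-y led in every library and alone held 73.4% to 79.8% of the reads of the 42 entries; it ranked 33 among the 709 entries with known names. It was followed by its own 5p arm, miR-725-x, at rank 78 and by miR-460-x at rank 111. miR-458-y, miR-2188-x, miR-737-x, miR-724-x, miR-2188-y and miR-722-y came next, at means over all libraries of 70.7, 62.7, 50.3, 40.5, 38.2 and 37.2 TPM. Within this stretch neighbours are not separated beyond the spread of the libraries: miR-458-y stood at 55.6 to 85.1 TPM and miR-2188-x at 46.8 to 78.6 TPM over all 6. miR-734-y and miR-734-z, with means of 15.35 and 15.01 TPM, ranked 232 and 233, and miR-2184-x and miR-2184-y ranked 289 and 340.

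**Figure D1:**
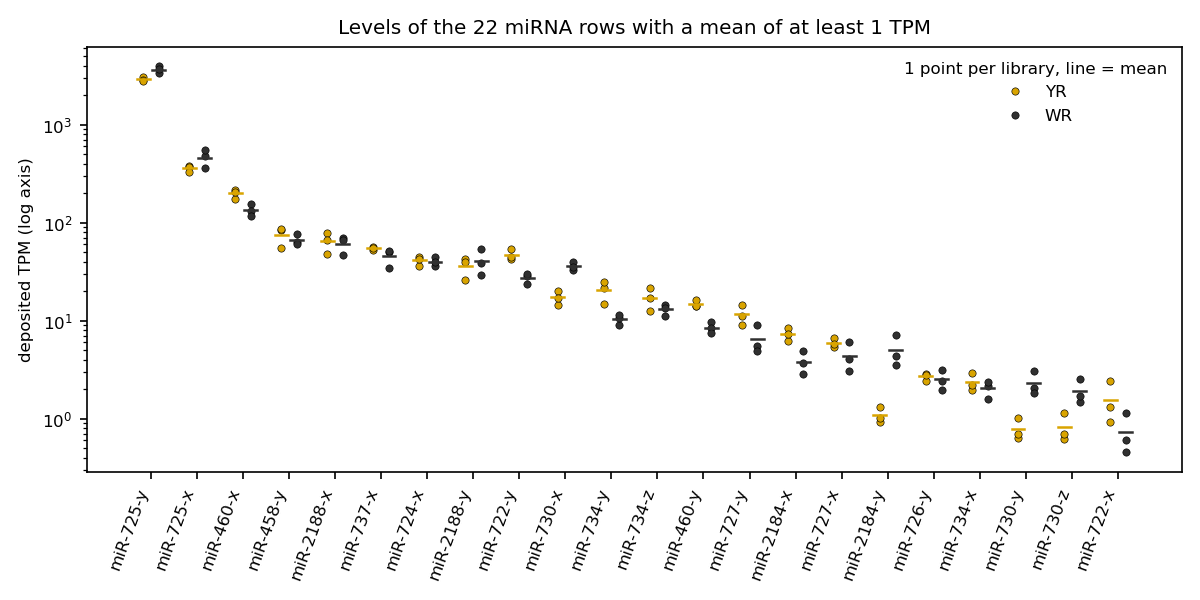
Deposited TPM (log axis) of the 22 entries that average 1 TPM or more, ordered by their mean; each point is 1 library, 3 of YR (left, yellow) and 3 of WR (right, dark), and the line is the group mean. miR-725-y lies at 2763 to 3062 TPM in YR and 3336 to 3928 TPM in WR, far above the rest, and the groups of miR-2184-y, miR-730-x and miR-460-y do not overlap.

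No single entry passed the test between yellow and black skin. Of the 22 tested entries 16 had a positive log2 fold change (YR over WR) and 6 a negative one, against 48.8% positive among all tested miRNAs; with library totals in place of TMM scaling 15 were positive, against 34.9% of all. By edgeR's quasi-likelihood test on the counts, with TMM scaling and Benjamini-Hochberg adjustment over all 834 tested miRNAs, 0 passed an adjusted p of 0.05, against 5.28% of all tested miRNAs (18 higher, 2.16%, and 26 lower, 3.12%; 1 and 29 with library totals). At an unadjusted p under 0.05 there were 11 of the 22, 7 higher and 4 lower, against 21.7% of all, 11.9% higher and 9.83% lower. DESeq2 called 8 of the 22, 6 higher and 2 lower, against 9.73% of those it tested, 4.10% higher and 5.63% lower. limma on log2(TPM + 1) called 2, both lower, against 4.92% of all, 0.480% higher and 4.44% lower. The median log2 fold change was 0.42 over the 22 and -0.03 over all 834. With library totals it was 0.19 and -0.26. A change of scaling moves all entries by nearly the same amount, so the like gap on both scales is no separate result. Without WR replicate 1 the medians were 0.16 over the 22 and -0.02 over all, a smaller gap. The 22 entries fall under 12 family numbers and include both arms and near copies of some. The counts and medians given here are therefore not of independent entries. In addition, miR-722-x, miR-730-y and miR-730-z average under 1 TPM in 1 group and passed the minimum only through the other. They are counted here, but their direction is no separate support. TPM of the groups did not overlap for 11 of the 22, 6 higher and 5 lower in YR, against 28.3% of all tested miRNAs, 8.63% higher and 19.7% lower. After TMM scaling, looked at once the values were seen, they did not overlap for 13, 9 higher and 4 lower, against 28.8% of all, 17.6% higher and 11.2% lower. Without WR replicate 1, edgeR called 8 of the 22, 4 higher (miR-2184-x, miR-460-x, miR-460-y and miR-727-y) and 4 lower (miR-2184-y, miR-725-x, miR-725-y and miR-730-x). Calls were more frequent over all miRNAs in that setting too, at 118 of 834 or 14.1%, 31 higher (3.72%) and 87 lower (10.4%). Among the entries not called there, the log2 fold change without that library was 0.01 for miR-724-x, 0.06 for miR-734-x, 0.09 for miR-726-y, 0.12 for miR-737-x, 0.20 for miR-2188-x, 0.33 for miR-734-z, 0.71 for miR-722-y and 0.93 for miR-734-y, each lower than with it. It was also lower for miR-722-x (0.95) and miR-458-y (0.29). The other uncalled entries had slightly higher values without that library: miR-727-x (0.76), miR-2188-y (0.11), miR-730-y (-1.25) and miR-730-z (-0.95).

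**Figure D2:**
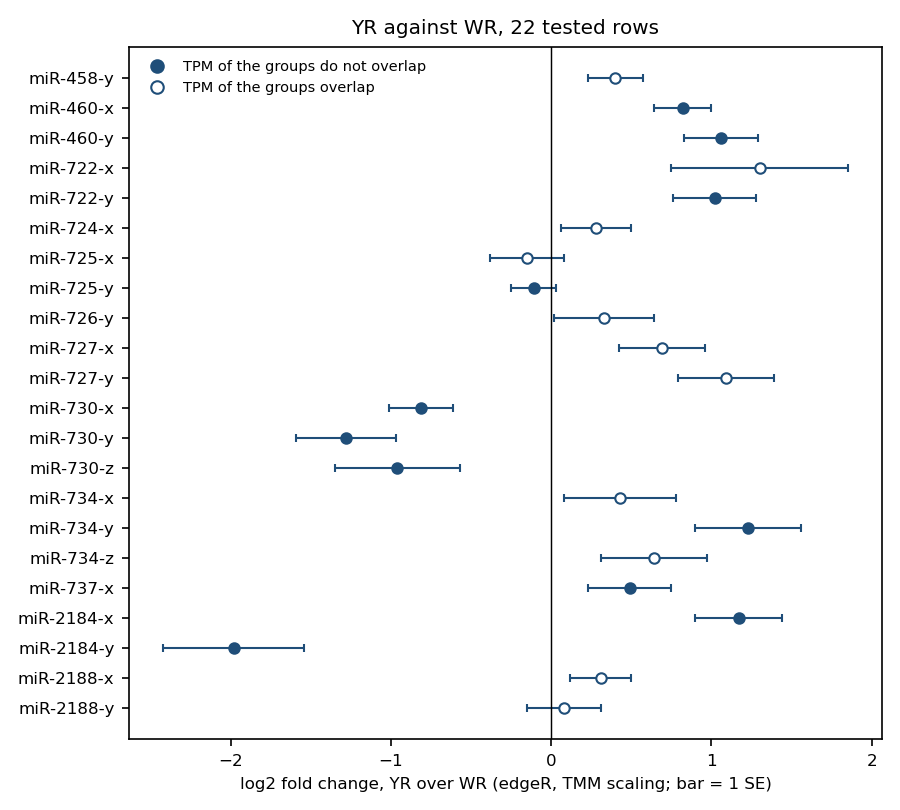
Log2 fold change of YR over WR (edgeR, TMM scaling) of the 22 tested entries by family number, with bars of 1 SE; filled points are entries whose TPM do not overlap between the groups. The 3 miR-730 entries and miR-2184-y lie left of 0 at -0.81 to -1.98, and both arms of miR-460, miR-722 and miR-727 lie right of it at 0.69 to 1.30.

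The arms of miR-2184 lay on opposite sides of WR, though neither passed edgeR's test on its own. The 5p arm, miR-2184-x, had 81, 49 and 73 reads in YR (8.32, 6.22 and 7.34 TPM), against 40, 25 and 33 reads in WR (4.86, 2.87 and 3.73 TPM). Every YR library lay above every WR library. Its log2 fold change was 1.17 (SE 0.27; edgeR adjusted p = 0.0642). The 3p arm, miR-2184-y, had 9, 8 and 13 reads in YR (0.9245, 1.02 and 1.31 TPM), against 29, 38 and 63 reads in WR (3.53, 4.36 and 7.12 TPM). Here every YR library lay below every WR library, and WR replicate 3 was the highest. The log2 fold change was -1.98 (SE 0.44; edgeR adjusted p = 0.0617). The authors' deposited table gives miR-2184-y a log2 fold change of -2.21 with an adjusted p = 0.0398, its only adjusted p under 0.05 among the 42 entries, against 4.95% of the 1939 entries of that table. The authors' deposited table has 0.93 and an adjusted p = 0.298 for miR-2184-x. edgeR on library totals alone called miR-2184-y (adjusted p = 0.031), DESeq2 called both arms (0.0267 for x and 0.00927 for y), and without WR replicate 1 edgeR called both (0.0412 and 0.00723).

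Added together, the arms of miR-2184 differed between the groups by less than the spread of the libraries. Their sum was 8.38 ± 1.03 TPM in YR and 8.82 ± 1.86 TPM in WR (SD, n = 3 each; 2-sided exact permutation p = 0.9). What differed was the arm that was read. The 5p arm gave 90.0% of the reads of the pair in YR replicate 1 (95% Wilson interval 82.1 to 94.7), 86.0% in YR replicate 2 (74.7 to 92.7) and 84.9% in YR replicate 3 (75.8 to 91.0). It gave 58.0% in WR replicate 1 (46.2 to 68.9), 39.7% in WR replicate 2 (28.5 to 52.0) and 34.4% in WR replicate 3 (25.6 to 44.3). No interval of a YR library reaches that of a WR library; intervals cover counting error only, since reads without molecular identifiers are not independent molecules. In YR the 5p arm was the leading strand in 3 of 3 libraries, whereas in WR the 3p arm led in 2 of 3.

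The log2 ratio of x to y TPM, with 1 TPM added to each, was 1.99 ± 0.25 in YR and -0.29 ± 0.60 in WR (SD, n = 3 each). The ratio of miR-2184 rose by 2.28 (SE 0.32; limma adjusted p = 0.0252 over 112 pairs). It was the 1 pair of 112 past the threshold, 0.893% of all, and had the largest difference and the smallest p of the 112, whose median size of difference was 0.24. In a model of the counts themselves, with an arm by group term in edgeR, the difference was 3.11 (adjusted p = 0.0233). With a larger pseudocount of 5 TPM it was 1.18 (limma adjusted p = 0.0474). The 3p arm in YR, at 0.9245, 1.02 and 1.31 TPM, lies well below that pseudocount. The call was kept without WR replicate 1, with a difference of 2.62 (limma adjusted p = 0.00139). It was lost without any 1 of the other 5 libraries (limma adjusted p of 0.0633 to 0.155), where the difference was 2.04 to 2.36. It was also lost when pairs with only 1 arm at 1 TPM or more were tested too (limma adjusted p = 0.0671). An entry need not be a single gene, so a change of arm use and a change among gene copies cannot be told apart.

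**Figure D3:**
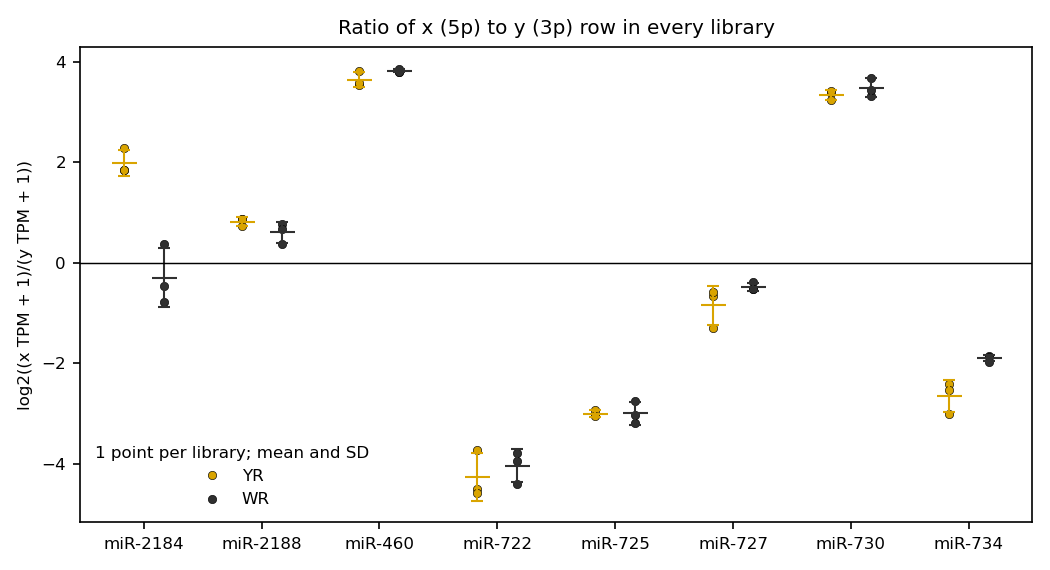
Log2 ratio of the x (5p) to the y (3p) entry, with 1 TPM added to each, for the 8 families whose arms both average 1 TPM or more; each point is 1 library, YR left and WR right, with group mean and SD. miR-2184 lies at 1.84 to 2.28 in YR and -0.78 to 0.37 in WR, while the groups of miR-725 both average -3.0.

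The ratio of miR-734 leaned the other way, towards its 3p arm. miR-734-y, the 3p arm, stood at 14.7, 21.6 and 24.8 TPM in YR, against 9.12, 10.6 and 11.3 TPM in WR. The groups do not overlap, and the YR libraries are the more spread. Its log2 fold change was 1.23 (SE 0.33; edgeR adjusted p = 0.0953; DESeq2 adjusted p = 0.031). miR-734-x, the 5p arm, stood at 1.95, 2.92 and 2.21 TPM in YR, against 1.58, 2.18 and 2.38 TPM in WR, with overlapping groups (log2 fold change 0.43, SE 0.35; edgeR adjusted p = 0.464). The 5p share of the pair was 11.7% (Wilson interval 7.64 to 17.6), 11.9% (8.07 to 17.3) and 8.18% (5.46 to 12.1) in YR, against 14.8% (8.84 to 23.7), 17.1% (11.2 to 25.2) and 17.4% (11.6 to 25.1) in WR. Each interval of one group overlaps an interval of the other. The log2 ratio was -2.65 ± 0.32 in YR and -1.90 ± 0.06 in WR (SD, n = 3 each), a difference of -0.75 (SE 0.20; limma adjusted p = 0.205), which ranked 4 of 112 by p and 9 by size.

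miR-734-z, which carries C in place of the last T of miR-734-y, was read about as often. It stood at 12.6, 17.1 and 21.3 TPM in YR, against 11.2, 14.4 and 13.3 TPM in WR, with overlapping groups (log2 fold change 0.64, SE 0.33; edgeR adjusted p = 0.291). In YR the y form was the more abundant of the pair in all 3 libraries, with log2 ratios of y to z of 0.20, 0.32 and 0.21. In WR the z form was the more abundant in all 3, with log2 ratios of -0.27, -0.42 and -0.22. The groups differed by 0.55 without overlap (2-sided exact permutation p = 0.1, which 3 libraries against 3 cannot go below). This split by form was added after the values were seen. The sources used here do not say how reads that match both forms were assigned. With z added to the 3p arm, a setting added once the values were seen, the log2 ratio of x to y was -3.49 in YR and -3.0 in WR and the difference shrank to -0.49 (limma adjusted p = 0.341).

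The other 6 pairs did not pass the test of arm balance. miR-460 and miR-730 are read mainly from the 5p arm, with log2 ratios of 3.65 ± 0.15 in YR against 3.83 ± 0.04 in WR for miR-460, and 3.35 ± 0.09 against 3.49 ± 0.19 for miR-730. miR-722 and miR-725 are read mainly from the 3p arm, at -4.27 ± 0.47 in YR against -4.04 ± 0.33 in WR for miR-722, and -3.0 ± 0.07 against -3.0 ± 0.23 for miR-725. Both arms of miR-2188 and miR-727 were read at like levels, with log2 ratios of 0.82 ± 0.08 in YR against 0.61 ± 0.21 in WR for miR-2188, and -0.84 ± 0.40 against -0.47 ± 0.09 for miR-727 (SD, n = 3 each). The differences of these 6 pairs ran from -0.37 to 0.21, with limma adjusted p from 0.525 to 0.972. The signs for miR-730 and miR-722 were not stable, and miR-730-y and miR-722-x lie near the 1 TPM added. With an arm by group term in edgeR their differences were 0.47 and 0.24 (adjusted p = 0.575 and 0.847). By reads the 5p share of miR-730 was 95.2%, 95.8% and 96.1% in YR, against 92.8%, 94.0% and 95.1% in WR. The Wilson intervals of the groups overlap. Over all 112 pairs, 57 had more x than y in every library and 43 more y than x, which leaves 12, miR-2184 among them, where the leading arm was not the same in every library.

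**Figure D4:**
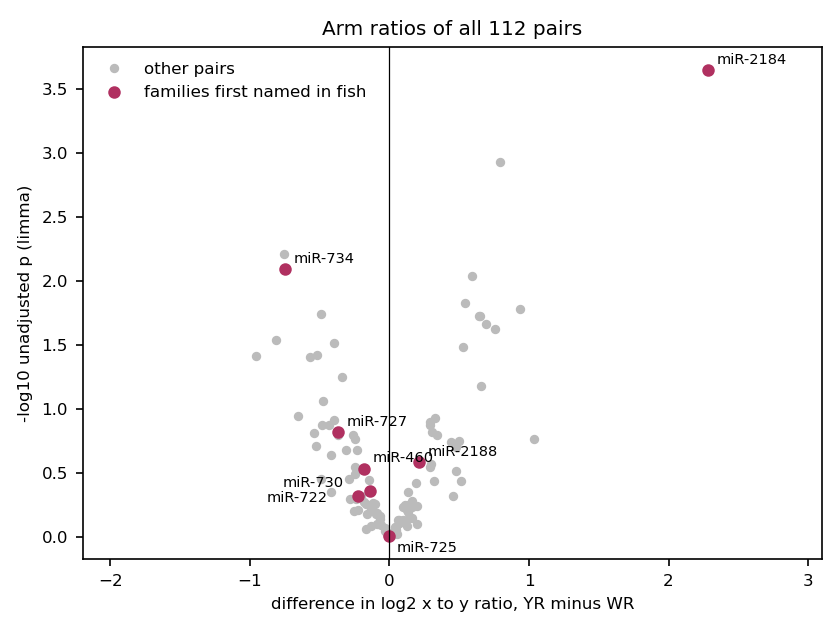
Difference in the log2 ratio of x to y, YR minus WR, against -log10 of the unadjusted limma p for all 112 tested pairs; the 8 pairs of the families described are marked. miR-2184 lies alone at 2.28, and miR-734 at -0.75 lies among the other pairs.

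miR-460 and miR-730, whose 3p arms share the seed shown above, stood on opposite sides of WR. miR-460-x was at 174.9, 212.5 and 207.3 TPM in YR, against 154.4, 130.1 and 117.6 TPM in WR (log2 fold change 0.82 with an SE of 0.18; edgeR adjusted p = 0.0572). miR-460-y was at 14.1, 14.1 and 16.4 TPM in YR, against 9.61, 8.37 and 7.46 TPM in WR (log2 fold change 1.06, SE 0.23; edgeR adjusted p = 0.0546, the lowest of the 22). All YR libraries lay above all WR libraries in both arms. miR-730-x was at 20.2, 14.5 and 17.2 TPM in YR, against 39.4, 32.6 and 35.3 TPM in WR (log2 fold change -0.81 with an SE of 0.20; edgeR adjusted p = 0.0705). miR-730-y was at 1.03, 0.635 and 0.704 TPM in YR, against 3.04, 2.06 and 1.81 TPM in WR, from 22 and 59 reads in all (log2 fold change -1.28, SE 0.31; edgeR adjusted p = 0.0723). All YR libraries lay below all WR libraries in both arms. So they did in miR-730-z, the form read from 1 base upstream (0.821 ± 0.282 TPM in YR and 1.91 ± 0.564 TPM in WR, SD, n = 3 each). Both miR-730-y and miR-730-z average under 1 TPM in YR and passed the minimum of 1 TPM only through WR. Their direction is therefore no separate support for miR-730-x.

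The log2 ratio of miR-460-y to miR-730-y was 3.15 ± 0.23 in YR and 1.53 ± 0.12 in WR, and that of miR-460-x to miR-730-x was 3.45 ± 0.37 in YR and 1.87 ± 0.14 in WR (SD, n = 3 each). These ratios are free of library scaling apart from the 1 TPM added. They differed by 1.62 and 1.58 without overlap (2-sided exact permutation p = 0.1 each). In YR, miR-730-y at 0.635 to 1.03 TPM lies near or below the 1 TPM added. This lowers the ratio of miR-460-y to miR-730-y, most of all in YR. The size of 1.62 therefore depends on the pseudocount, and its likeness to 1.58 is no result. The pairing was added after the values were seen. The lack of overlap, and with it this p, follows from the TPM given above and is no separate result. miR-730-x passed by DESeq2 (adjusted p = 0.00461), by limma on log2(TPM + 1) (0.0317), by edgeR among miRNAs that average 10 TPM or more (0.0449) and by edgeR without WR replicate 1 (0.0197). Both arms of miR-460 passed by DESeq2 (0.00905 for x and 0.00442 for y) and by edgeR without WR replicate 1 (0.025 and 0.0412).

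**Figure D5:**
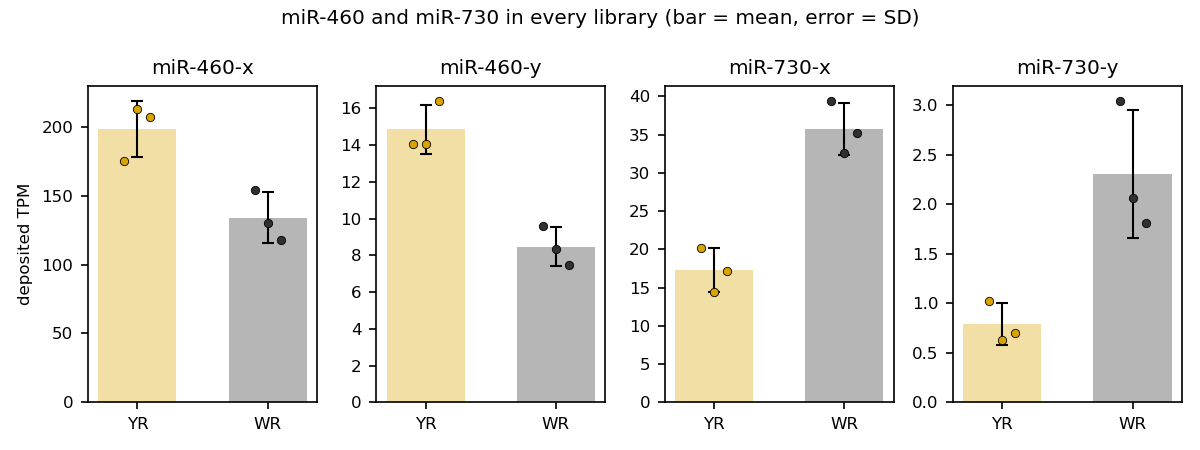
Deposited TPM of both arms of miR-460 and miR-730, YR left of WR; points are libraries, bars are means with SD, and each panel has its own axis from 0. The arms of miR-460 average 198 and 14.9 TPM in YR against 134.1 and 8.48 TPM in WR, and those of miR-730 average 17.3 and 0.789 TPM in YR against 35.7 and 2.30 TPM in WR.

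miR-722 and miR-727 had both arms higher in YR, in values that missed the threshold. miR-722, which in zebrafish lowers the motility of neutrophils through the small GTPase Rac2, was read mainly as miR-722-y, at 42.4, 44.0 and 54.3 TPM in YR, against 23.7, 28.4 and 30.0 TPM in WR. The groups do not overlap (log2 fold change 1.02, SE 0.26; edgeR adjusted p = 0.0887; DESeq2 adjusted p = 0.0273). miR-722-x, from 41 reads in YR and 19 in WR, had a log2 fold change of 1.30 (SE 0.55, edgeR adjusted p = 0.23). Its groups overlap. At means of 1.55 TPM in YR and 0.736 TPM in WR it passed the minimum of 1 TPM only through YR. The direction of this arm is therefore no separate support for miR-722-y. miR-727-y was at 11.1, 14.6 and 9.05 TPM in YR, against 9.12, 5.50 and 4.86 TPM in WR (log2 fold change 1.09, SE 0.30; edgeR adjusted p = 0.0953; DESeq2 adjusted p = 0.0474). Here YR replicate 3 lay just below WR replicate 1, so the groups overlap, and without WR replicate 1 edgeR called it (adjusted p = 0.0326). miR-727-x was at 5.91 ± 0.691 TPM in YR and 4.38 ± 1.55 TPM in WR (SD, n = 3 each; log2 fold change 0.69 with an SE of 0.27; edgeR adjusted p = 0.201).

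miR-725, the most abundant family, had lower TPM in YR, by an amount that depended on the scaling. miR-725-y stood at 3062, 2820 and 2763 TPM in YR, against 3336, 3928 and 3660 TPM in WR, without overlap. After TMM scaling its log2 fold change was -0.11 (SE 0.14; edgeR adjusted p = 0.623), with library totals alone -0.34 (adjusted p = 0.131) and without WR replicate 1 -0.38 (adjusted p = 0.0281). miR-725-x stood at 376.8, 369.1 and 330.4 TPM in YR, against 361.4, 476.5 and 544.4 TPM in WR, where the groups overlap through WR replicate 1 (log2 fold change -0.15, SE 0.23; edgeR adjusted p = 0.684, and -0.50 with adjusted p = 0.0376 without that library). A predicted entry that matches miR-725-x shifted by 1 base stood at 1.62 TPM in YR and 2.72 TPM in WR, and is listed more than once. Because of this family the 42 entries together stood at 3867 ± 181 TPM in YR and 4620 ± 339 TPM in WR (SD, n = 3 each; 2-sided exact permutation p = 0.1), but at a log2 ratio of -0.03 after TMM scaling (exact p = 0.9).

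The remaining tested entries did not pass the test in any setting tried. miR-737-x stood at 56.6, 52.8 and 55.5 TPM in YR, against 34.5, 50.7 and 51.6 TPM in WR, where WR replicate 1 alone lies far below (log2 fold change 0.49, SE 0.26; edgeR adjusted p = 0.291). Its log2 fold change was 0.12 without that library. miR-458-y averaged 75.0 ± 16.8 TPM in YR and 66.4 ± 8.48 TPM in WR, miR-724-x 41.1 ± 4.22 and 39.9 ± 3.94, miR-2188-x 64.3 ± 15.2 and 61.1 ± 12.5, miR-2188-y 36.0 ± 8.86 and 40.3 ± 12.4, and miR-726-y 2.70 ± 0.253 and 2.52 ± 0.613 (YR before WR; SD, n = 3 each). Their groups overlap, with log2 fold changes of 0.08 to 0.40 and edgeR adjusted p from 0.233 to 0.836. miR-2188-y is the only entry of the 22 whose sign turned with library totals alone, to -0.16. By family, summed TPM did not overlap for 6 of 12 compared, with miR-460, miR-722, miR-734 and miR-737 higher and miR-725 and miR-730 lower in YR (2-sided exact permutation p = 0.1 each, adjusted 0.2). Over all 258 family numbers with a tested entry this held for 19.4%, 5.43% higher and 14.0% lower. After TMM scaling 6 of the 12 were higher without overlap, miR-458 and miR-727 joining those named, and 1 lower, miR-730, while miR-725 overlapped; over all 258 it was 15.5% higher and 6.20% lower.

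The 20 entries under 1 TPM had 4 to 44 reads each over all 6 libraries. How large a difference could be detected at this depth was not tested. With no filter on low counts, miR-723-x had the lowest unadjusted edgeR p of the 20 (0.0316, adjusted p = 0.25). It had 1, 0 and 1 reads in YR against 2, 6 and 5 in WR, without overlap in TPM. miR-459-x, with 3, 2 and 4 reads in YR against 5, 6 and 9 in WR, did not overlap in TPM either (adjusted p = 0.351). On the other side miR-722-z had 4, 3 and 9 reads in YR against 1, 3 and 1 in WR. It lay higher in YR without overlap in TPM (edgeR unadjusted p = 0.0501 and adjusted p = 0.295). Replicate 2 of YR and of WR had 3 reads each, and their 0.381 and 0.344 TPM differ only through the library totals. These 3 entries of the 20 compare with 19.8% of all entries under 1 TPM, 7.60% higher and 12.2% lower. miR-733-z had 1, 5 and 0 reads in YR and 0 in every WR library, where 0 reads allow up to 3 counts, or 0.339 to 0.365 TPM in a library. miR-459-y had 4 reads, all in YR replicate 3. The minor arms of miR-724 and miR-737 show how uneven arms can be: miR-724-y had 7 reads in YR and 8 in WR against 1127 and 1031 for miR-724-x, and miR-737-y had 2 and 2 against 1519 and 1182 for miR-737-x.

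Known miRNAs with the most similar pattern over the 6 libraries were found by Pearson correlation of log2(TPM + 1). Those of the miR-2184 and miR-734 arms, miR-730-x and miR-725-y are given. They are a description, since the 6 points share library and group. miR-2184-x was nearest to miR-217-x (r = 0.95), miR-15-x (0.93) and miR-460-y (0.91). miR-2184-y was nearest to miR-196-z (0.99), a Hox cluster miRNA found at 1.32 TPM in YR and 9.60 TPM in WR, and then to miR-146-z (0.95) and miR-27-x (0.94). The arms had different neighbours, which follows from their opposite directions between the groups. miR-734-y was nearest to miR-722-y (0.96), miR-196-x (0.96) and miR-181-x (0.96), and miR-734-x to miR-724-x at only 0.77. miR-730-x was nearest to its own 3p arm (0.97), miR-8159-x (0.96) and miR-122-x (0.95), the liver miRNA whose lower level in YR is given above. miR-725-y was nearest to miR-183-x, miR-194-x and the epithelial miR-200-y (0.99 each). The named neighbours of miR-730-x and miR-725-y were all lower in YR, and a shared difference between groups raises r by itself. The part of tissue content in these values was not tested.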

How the data were processed

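Small RNA counts of 6 dorsal skin libraries, 3 YR and 3 WR, were used. Per the labels' protocols, Trizol RNA was ligated to adapters at both ends and sequenced on an Illumina HiSeq Xten. The authors deposited 1 table with a whole-number count per miRNA and library, a TPM score per library, and log2 fold changes with p-values whose test no source used here names. The deposited TPM score sums to 1039894 to 1052569 per library, and a count of 0, written there as a small number, was set to 0. The sources used here name no aligner, database or build.

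The 834 miRNAs that average 1 TPM or more were tested on their counts with edgeR 4.0.16 in R 4.3.3 (TMM, quasi-likelihood, no replicate term, Benjamini-Hochberg, threshold 0.05); those left out hold 0.0369% of the counts. Arm ratios were tested with limma 3.58.1 on log2((x + 1)/(y + 1)) in TPM, over 112 of 186 families whose arms both average 1 TPM or more. The SE of an edgeR fold change is its size over the square root of F. TPM keep the authors' library scale and fold changes the TMM scale. DESeq2 1.42.0, other scalings, filters, pseudocounts, a replicate term and leaving out each library were alternatives. Base pairs between arms are from RNAduplex (ViennaRNA 2.7.2). Replicates of a group differed by far more than sampling noise (chi-square per degree of freedom 65.2 to 527). Only the main edgeR fit and the limma fit of arm ratios were run on simulated data, with an outcome not reported here.

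The members, marker lists and tests were chosen with earlier results of these data known. All members are accounted for; for each of the 22 tested, the 3 known miRNAs of highest correlation were found, and those of 6 are named. Splits by form (y against z) and between miR-460 and miR-730 were added after the values were seen.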

Additional observations from a re-analysis of the deposited data

How the results depend on the processing

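Against 0 of the 22 tested entries in the main result, 1 was called with library totals alone, 8 by DESeq2 and 2 by limma on log2(TPM + 1). At 10 TPM or more on average 1 was called, with both arms of miR-2184 and miR-727 among the entries no longer tested. Without single libraries 0 to 8 were called (8 without WR replicate 1, 0 without each of the others). Over all miRNAs the 44 calls became 76 by DESeq2, and 16 among the fewer miRNAs at 10 TPM or more on average. They became 21 with 1 entry per distinct sequence (chosen after seeing the data), 2 with a replicate block, and 1 to 118 without single libraries. By the labels the replicate numbers pair no samples. Deviations of same-numbered libraries correlated at 0.26, -0.11 and 0.30, and 4 of 6 libraries correlated best with their own number in the other group. Whether same-numbered libraries were handled together was not tested, and the main fit has no replicate term. With the replicate block 0 of the 22 were called and the miR-2184 arm ratio kept its call (adjusted p = 0.0256). Of the arm ratios, 1 was called, that of miR-2184. Families with at least 1 arm at 1 TPM gave 0 calls. With both arms at a mean of 5 TPM miR-2184 was not tested, which left 0 calls among the families described and 1 in all. In all pairs there were 2 calls each with a pseudocount of 5 TPM, an arm by group term in edgeR and, chosen after seeing the data, a mean-variance trend. Without single libraries there were 0 to 3 calls, 0 to 1 of them miR-2184. Signs turned for values that the main test did not call. miR-2188-y had -0.16 with library totals, -0.15 by limma, -0.14 at 10 TPM or more on average, -0.05 with distinct sequences and -0.06 to 0.22 without single libraries. The arm ratio of miR-730 was 0.08 with a pseudocount of 0.5 TPM and 0.47 by edgeR, and that of miR-722 0.24 by edgeR. After TMM scaling the summed log2 ratio was 0.14 for miR-2184 and 0.22 for miR-2188. Without single libraries miR-725-x ran from -0.50 to 0.07, the miR-725 arm ratio from -0.11 to 0.12, and the summed miR-2184, miR-2188, miR-724 and miR-726 from -0.20 to 0.10, -0.19 to 0.16, -0.03 to 0.12 and -0.07 to 0.30. The cause of these differences was not tested. Depth limits the tested entries with few reads, such as miR-730-y with 5 to 10 and miR-2184-y with 8 to 13 in a YR library.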
